A study of Mus musculus with 2688 samples.

Results

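Microglia of the rostral and the caudal central nervous system of adult mice were compared: cells of cortex and hippocampus on the rostral side and cells of cerebellum and spinal cord on the caudal side, all from CD1 mice of 16 weeks. Membership followed the labelled region, age and replicate alone, which gave 16 region samples (8 rostral and 8 caudal, 4 per region) and 760 wells. Of these wells 688 were kept as cells, 340 rostral and 348 caudal, out of 2402 kept cells and 51 region samples in the whole series. All groups are labelled WT, for wild type, and the labels name no other allele and no treatment. The animals had been perfused and myeloid cells enriched on a Percoll gradient, stained for CD11b, CD45, Ly6C, Ly6G and CD206, and sorted 1 per well for SmartSeq2, a full-length single-cell RNA sequencing method. The series also holds embryonic cells, cells of 3 weeks and corpus callosum cells, used here only where they bear on the 16-week comparison. Counts were summed over the kept cells of each region sample, and levels are given as CPM, counts scaled to a common library total after TMM scaling of the libraries.

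Microglia are the resident macrophages of brain and spinal cord. Their undisturbed, or homeostatic, state is marked by a set of surface receptors, among them purinergic receptors that sense nucleotides leaking from cells, the fractalkine receptor and the receptor for the survival factor CSF1. In disease and ageing many of these genes are known to fall while lysosomal, lipid-handling and iron-storage genes, called disease-associated, rise. Regional differences between microglia of forebrain and of cerebellum or spinal cord are known from other work and concern sensing and immune genes.

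The region samples held 32 to 47 cells and 6343182 to 12808796 counts each. Each region lay on 1 plate, cortex on plate P216 and hippocampus on plate P217 together with corpus callosum. Cerebellum and spinal cord lay together on plate P218. Plate P216 also held cells of another age. Plate and side therefore cannot be told apart. Replicates of a region are separate mice by the series design, which also has more than 1 region taken from a mouse. The labels do not tie a replicate number to a mouse, so region samples may not be independent and the p-values may be too small or too large. The 20 homeostatic marker genes were all detected, and their summed level was 142100 to 170100 CPM in rostral and 123500 to 147000 CPM in caudal samples. Border macrophage markers, which include the gene of the sort marker CD206, summed to 3.13 to 41.6 CPM rostrally and 1.07 to 22.1 CPM caudally, with Cbr2 at 0 in all 16 samples. Monocyte markers summed to 3.22 to 87.3 CPM and 2.76 to 44.2 CPM, with Ly6c2 at 0. T and NK cell markers stayed at or below 14.7 CPM and neutrophil markers at or below 7.16 CPM. Astrocyte markers summed to 145.2 to 370.7 CPM rostrally and 132.0 to 292.3 CPM caudally, and oligodendrocyte markers to 104.5 to 172.9 CPM and 65.4 to 371.5 CPM. B cell markers summed to more, 1042 to 1773 CPM rostrally and 830.5 to 1378 CPM caudally. Purkinje and Bergmann glia markers summed to 148.6 to 410.5 CPM and 122.4 to 321.4 CPM. Endothelial markers reached 64.5 CPM rostrally and 120.0 CPM caudally, and neuron markers 51.9 and 60.8 CPM. The labelled cell type is matched by its own markers on both sides, and the part of the other cells' markers in the results was not tested.

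Per-cell measures differed between the sides. Over the region samples the mean of the median read number per cell was 233200 ± 43380 rostrally and 192100 ± 36570 caudally (SD, n = 8 each), with an adjusted p of 0.0923 by exact two-sided permutation over 12870 splits, and of 0.0345 without cerebellum replicate 1. With cells cut down at random to 71388 reads each, the median number of detected genes was 2339 ± 151.7 in rostral and 2123 ± 58.9 in caudal samples (exact permutation, adjusted p = 0.0087). Reads of spike-in RNA took 0.228% ± 0.0265 of counts rostrally and 0.321% ± 0.0283 caudally (exact permutation, adjusted p = 0.00187). The mitochondrial share was 1.86% ± 0.287 and 1.95% ± 0.320, with an adjusted p of 0.653 in the exact permutation test. Caudal wells thus held a larger share of spike-in reads and fewer detected genes, and the part of these measures in the gene differences was not tested. Thinning all cells to 1 number of reads before summing kept all 19 called genes described next among 25 calls. Thinning evens out the number of reads per cell, and not the spike-in share or the number of detected genes.

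Of 13318 genes tested, 19 passed an adjusted p of 0.05 in edgeR's quasi-likelihood test, 8 higher in rostral and 11 higher in caudal microglia. These are 0.143% of the genes tested, 0.0601% in the rostral and 0.0826% in the caudal direction. At an unadjusted p under 0.05 there were 1099 genes, and DESeq2 called 227, the 19 among them. The median log2 difference over all genes tested was 0.02. All 19 genes had 1 sign in the 4 pairs of a rostral with a caudal region. The contrast that called them averages these same pairs, so the shared sign gives no independent support. For 10 of the 19 genes, 5 in each direction, the 8 rostral and 8 caudal values did not overlap. Such separation was seen for 23 genes in all, 0.173% of those tested, with 0.0751% in the rostral and 0.0976% in the caudal direction.

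The calls differed in how far they held. With the regions of a side summed per replicate number (4 against 4), edgeR called Fcrls, Bank1, P2ry12, Cd14, Ifi30 and Rn18s-rs5. It called none of the other 13, and with the replicate block added to those sums none of the 19 (lowest adjusted p = 0.1). The same block on the 16 unsummed region samples gave 26 calls, 16 of the 19 among them. Sparc, Csf1r, Csf2ra, Fth1, Ctsl, Tet3, Slc39a12 and Tnfsf8 were not called with any of the 4 regions left out.

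Microglial receptors and markers of the homeostatic state made up most of the rostral genes: Fcrls, P2ry12, P2ry13, Cx3cr1, Csf1r and Sparc. The immune adaptor gene Bank1 and the zinc transporter gene Slc39a12 were the other rostral genes. The caudal genes included Cd14, Ifi30 and Csf2ra, which act in innate sensing, antigen processing and cytokine response, Fth1 of iron storage and the lysosomal protease gene Ctsl.

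The promoters of some of these genes are shown to give the sequence at the start of genes described next. RefSeq promoters on GRCm38.p6, 250 bases before to 50 after a gene's start, were used for 7 of the 8 rostral and 9 of the 11 caudal genes. They are written 5′ to 3′ on the gene's own strand. Capitals mark a pair of the motifs searched on both strands. The first is GAGGAA, the core of sites bound by the myeloid factor PU.1, whose match on the other strand appears as the reverse complement. The second is the E-box CACGTG, which reads alike on both strands and is bound by factors such as TFEB and MITF. In the printed promoters the motifs do not overlap each other. P2ry12 and P2ry13 are neighbours on chromosome 3, and Fcrls lies on the same chromosome.
Fcrls (chr3:87263475-87263774, minus strand): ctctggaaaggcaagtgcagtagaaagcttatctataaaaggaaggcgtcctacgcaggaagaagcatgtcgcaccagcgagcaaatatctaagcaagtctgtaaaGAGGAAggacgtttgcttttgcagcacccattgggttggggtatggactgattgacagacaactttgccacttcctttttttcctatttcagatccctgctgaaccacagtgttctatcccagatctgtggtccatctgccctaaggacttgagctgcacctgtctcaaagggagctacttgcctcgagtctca
P2ry12 (chr3:59262936-59263235, minus strand): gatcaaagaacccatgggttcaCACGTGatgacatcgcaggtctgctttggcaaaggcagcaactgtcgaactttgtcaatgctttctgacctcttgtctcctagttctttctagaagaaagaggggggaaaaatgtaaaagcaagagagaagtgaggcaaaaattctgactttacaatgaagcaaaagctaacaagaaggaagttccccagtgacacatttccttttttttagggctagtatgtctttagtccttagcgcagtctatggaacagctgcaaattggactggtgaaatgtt
P2ry13 (chr3:59210833-59211132, minus strand): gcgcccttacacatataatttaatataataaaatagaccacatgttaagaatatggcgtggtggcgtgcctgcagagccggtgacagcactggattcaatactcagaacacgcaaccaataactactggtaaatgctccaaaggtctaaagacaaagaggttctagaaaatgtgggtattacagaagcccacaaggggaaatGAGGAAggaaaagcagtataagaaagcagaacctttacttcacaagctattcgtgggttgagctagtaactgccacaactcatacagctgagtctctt
Ifi30 (chr8:70766614-70766913, minus strand): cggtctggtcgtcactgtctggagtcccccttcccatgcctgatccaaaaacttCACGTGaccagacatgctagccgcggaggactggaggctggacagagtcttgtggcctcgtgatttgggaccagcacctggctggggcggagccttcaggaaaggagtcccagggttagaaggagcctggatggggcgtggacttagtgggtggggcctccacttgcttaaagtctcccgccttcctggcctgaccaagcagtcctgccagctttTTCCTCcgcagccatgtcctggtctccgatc

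A GAGGAA match stood in 3 of the 7 rostral and 5 of the 11 caudal promoters (2 of the 9 caudal genes had a pair of promoters), and in 28.3% of 32851 mouse promoters of the same length. The pair of Tmem176a promoters overlap and share a match, so that both are counted for the same site. CACGTG was found in 1 rostral and 2 caudal promoters, and in 7.15% of all. Another motif searched, the interferon-stimulated element written as GAAA, any pair of bases, then GAAA, was in 0 of the 7 rostral and 0 of the 11 caudal promoters and in 3.44% of all. A match is a description of these letters and not a measured site.

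Among the rostral genes, Fcrls, an Fc receptor-like scavenger receptor gene used as a microglial marker, had the largest fold among the called genes with reads in every sample. It lies at chr3:87250758-87263738. Its level ran from 2046 to 5323 CPM in the 8 rostral samples, with a median of 3309, and from 335.9 to 1395 CPM in the 8 caudal samples, with a median of 711.1. No caudal sample reached the lowest rostral one. The means were 3381 ± 1087 and 790.2 ± 384.4 CPM (SD, n = 8 each), a log2 difference of 2.19 ± 0.21 (SE), or 4.56-fold, with an edgeR adjusted p of 6.24e-05. By region the mean was 3694 ± 1203 CPM in cortex, 3069 ± 1024 in hippocampus, 1071 ± 315.2 in cerebellum and 509.0 ± 185.9 in spinal cord (n = 4 each). Neither neighbour within a side differed by edgeR's test, with adjusted p-values of 1.0 for hippocampus minus cortex and 0.922 for spinal cord minus cerebellum. Of the 4 pairs across sides, 3 passed the test, and hippocampus minus cerebellum had a log2 difference of 1.52 with an edgeR adjusted p of 0.126. Without the spinal cord samples the contrast of Fcrls was 1.65 with an edgeR adjusted p of 0.0582.

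P2ry12 encodes the ADP receptor that steers microglial processes to sites of damage, and lies at chr3:59216272-59262871. It lay between 11030 and 13910 CPM rostrally, with a median of 12750, and between 7655 and 9609 CPM caudally, with a median of 8786. The 2 ranges did not overlap although the difference was small. The means of 12580 ± 959.8 and 8690 ± 605.5 CPM gave a log2 difference of 0.53 ± 0.06 (SE), or 1.45-fold, at an edgeR adjusted p of 0.000181. It was the gene that passed in all 4 pairs of regions, with log2 differences from 0.50 (cortex minus cerebellum) to 0.57 (hippocampus minus spinal cord). It passed with each of the 4 regions left out in turn, as did the ribosomal RNA row Rn18s-rs5 described further on.

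P2ry13, the gene of a second ADP receptor, lay between 4741 and 6282 CPM rostrally, median 5314, and between 3109 and 4702 CPM caudally, median 3923. The highest caudal sample, from cerebellum, came close to the lowest rostral one without reaching it. The log2 difference was 0.46 ± 0.08 (SE), 1.38-fold, at an edgeR adjusted p of 0.0233. The call held in 8 of the 16 fits that each left out 1 region sample, where adjusted p-values ran from 0.0134 to 0.0729, and was lost with 2 groups of 8 (adjusted p = 0.0507) and with cortex, hippocampus or spinal cord left out (0.236, 0.121 and 0.543). P2ry12 shares an exonic stretch with Med12l on the other strand, and SmartSeq2 does not mark strand. Med12l itself was at 159.6 ± 32.4 CPM rostrally and 173.4 ± 46.0 CPM caudally (edgeR adjusted p = 0.951).

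Sparc, the gene of a secreted matrix-associated protein, lay between 5797 and 7850 CPM rostrally, median 6482, and between 4111 and 5474 CPM caudally, median 4967, again with no overlap. Its log2 difference was 0.45 ± 0.07 (SE), at an edgeR adjusted p of 0.0152. Leaving out cerebellum replicate 3 took the adjusted p to 0.0568, and the call held without each of the other 15 samples. With a whole region left out its adjusted p was 0.0916 to 0.272, and with limma on cell means 0.114. Cx3cr1, the fractalkine receptor gene, had means of 9378 ± 643.5 CPM rostrally and 7268 ± 797.7 CPM caudally, with ranges of 8304 to 10150 and 6109 to 8475 that overlapped slightly. The log2 difference was 0.37 at an edgeR adjusted p of 0.00591, and both pairs with spinal cord passed while both pairs with cerebellum did not. Its call was lost with cortex, hippocampus or spinal cord left out (edgeR adjusted p = 0.114, 0.062 and 0.469) and with limma on cell means (adjusted p = 0.233). The overlap of Cx3cr1 came from cerebellum, whose mean of 7864 ± 588.8 CPM lay between those of spinal cord (6673 ± 437.6) and cortex (9263 ± 465.8). Csf1r, the receptor gene of CSF1 and interleukin-34, had means of 15210 ± 1086 and 12620 ± 440.5 CPM, a log2 difference of 0.27, an edgeR adjusted p of 0.0235 and ranges that overlapped. Its call held in 7 of the 16 fits without 1 sample, and scaling by library size alone or limma on cell means ended it (adjusted p = 0.113 and 0.306).

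Bank1 encodes a scaffold protein with ankyrin repeats known from B cell receptor signalling. It lay between 188.0 and 363.0 CPM rostrally, median 235.9, and between 43.4 and 129.2 CPM caudally, median 73.8. All rostral samples lay above all caudal ones, and the log2 difference was 1.61 ± 0.24 (SE), 3.06-fold, at an edgeR adjusted p of 0.00582. The call held without each single sample, but with cortex, hippocampus or spinal cord left out the adjusted p was 0.053, 0.125 and 0.176. Of the 10 listed B cell markers 5 could be tested, 0 were called by edgeR and their median log2 difference was 0.24. Slc39a12, a zinc transporter gene, was present at 1.04 to 125.5 CPM in the 8 rostral samples and at 0 to 1.285 CPM caudally, where 5 of 8 samples had no read. Its edgeR adjusted p was 0.0433, and 3 of the 16 fits without 1 sample kept the call. It was lost with the replicate block (adjusted p = 0.109) and without plate columns 1 and 2 (adjusted p = 0.167). At 71388 reads per cell it had reads in 23 of 317 rostral and 2 of 302 caudal cells, so its level rested on few cells.

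**Figure D1:**
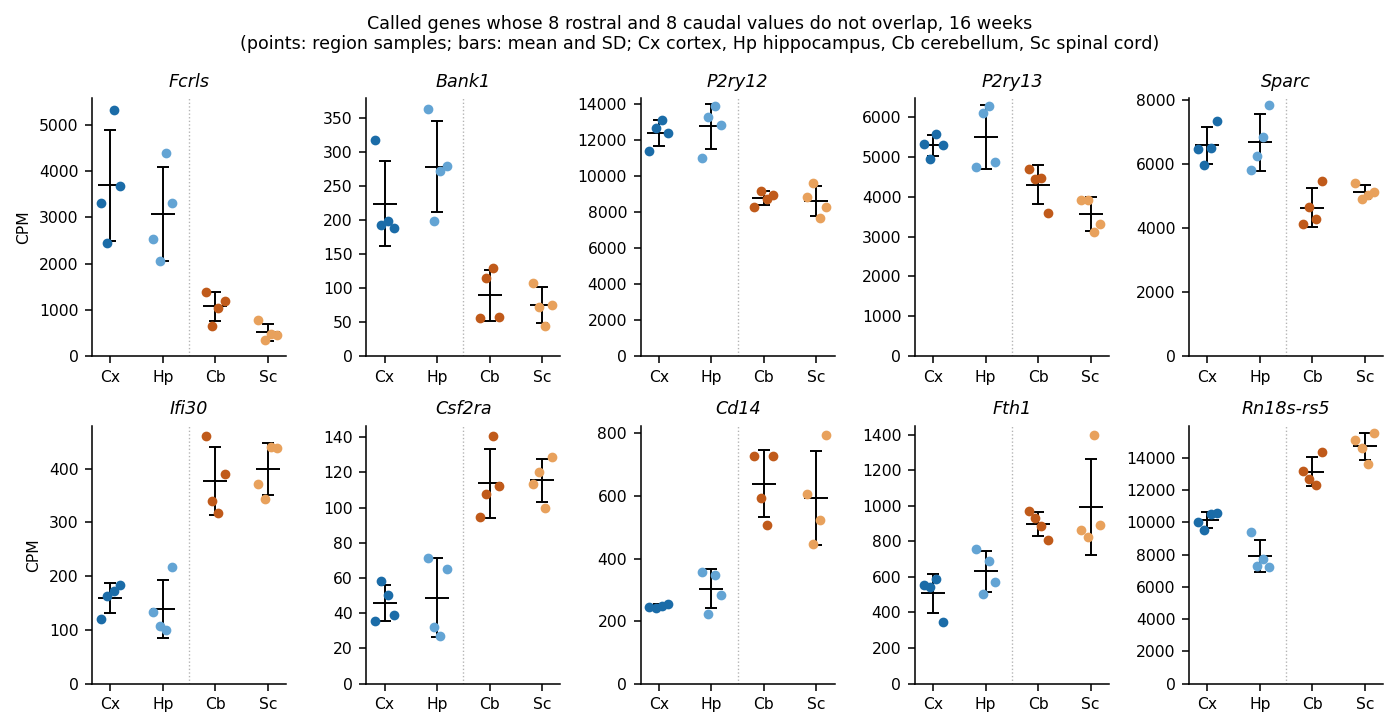
Level in CPM (y axes, starting at 0) of the 10 called genes whose 8 rostral and 8 caudal region samples do not overlap, by region (x axes, 4 points each; bars are the mean and SD). Upper row rostral genes: the lowest cortex or hippocampus sample of Fcrls lies at 2046 CPM and the highest cerebellum or spinal cord sample at 1395 CPM. Lower row caudal genes: the caudal samples of Ifi30 lie at 317.1 CPM or above and the rostral ones at 217.9 CPM or below.

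On the caudal side, Cd14, the lipopolysaccharide co-receptor gene, lay between 447.4 and 795.0 CPM, median 600.7, against 222.6 to 356.6 CPM rostrally, median 251.3. The sides did not overlap, and the 4 cortex samples lay close together at 247.7 ± 5.31 CPM. The log2 difference, rostral minus caudal, was -1.17 ± 0.14 (SE), a 2.25-fold higher caudal level, at an edgeR adjusted p of 0.000549. Both pairs with cortex passed the test, while both pairs with hippocampus did not (edgeR adjusted p = 0.1003 and 0.151). With cortex left out the adjusted p of Cd14 was 0.147. Tlr4, through which CD14 signals, was at 188.9 CPM rostrally and 193.4 CPM caudally (edgeR adjusted p = 0.992), a comparison chosen after its values were seen. Tlr2 was at 215.4 and 397.7 CPM and did not pass (log2 difference -0.90, edgeR adjusted p = 0.193).

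Ifi30 encodes GILT, a lysosomal thiol reductase that unfolds antigens for presentation. Its level was 317.1 to 460.7 CPM caudally, median 381.2, and 100.6 to 217.9 CPM rostrally, median 148.1. The sides were apart in every sample, with a log2 difference of -1.38 ± 0.17 (SE), 2.60-fold, and an edgeR adjusted p of 0.000726. With spinal cord left out the adjusted p of Ifi30 was 0.0582. Ifi30 overlaps exons of a transcript on the other strand, and reads of the 2 cannot be told apart. Of the 9 tested genes of MHC class II presentation 0 were called by edgeR, and neither were any of the 22 type I interferon genes.

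Csf2ra, the GM-CSF receptor alpha chain gene, lay between 94.6 and 140.6 CPM caudally, median 112.7, and between 27.1 and 71.2 CPM rostrally, median 44.9. The log2 difference was -1.28 ± 0.24 (SE), 2.42-fold, with an edgeR adjusted p of 0.0437. The call sat near the threshold and held in 2 of the 16 fits without 1 sample, although the values did not overlap. It was lost with the replicate block (adjusted p = 0.0837), without plate columns 1 and 2 (0.136) and with no filter on low counts (0.0582). Fth1, the ferritin heavy chain gene, lay between 805.5 and 1395 CPM caudally, median 886.6, and between 346.9 and 757.6 CPM rostrally, median 562.4 (log2 difference -0.74 ± 0.14 SE, edgeR adjusted p = 0.0433). Its call held in 2 of the 16 such fits, and was lost without plate columns 1 and 2 (adjusted p = 0.0502) and with limma on cell means (0.197). The deposited Fth1 row joins the exons on chromosome 19 with an interval on chromosome 8, so reads of a copy are counted with the gene.

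The lysosomal cathepsin L gene Ctsl had means of 1166 ± 136.4 CPM caudally and 782.6 ± 147.6 CPM rostrally, with overlap between 982.7 and 999.8 CPM (log2 difference -0.58, edgeR adjusted p = 0.0351, held in 5 of 16 fits). The Ctsl call was lost without plate columns 1 and 2 (adjusted p = 0.169) and with limma on cell means (0.248). Of the 26 lysosomal genes tested Ctsl was the 1 called, against 0.0826% of all genes in the caudal direction. Of the 26, 13 had a negative and 13 a positive log2 difference, with a median of 0.01. Ctsd, the cathepsin D gene, had the opposite sign, at 9744 CPM rostrally and 7793 CPM caudally, and did not pass (log2 difference 0.32, edgeR adjusted p = 0.219). The signs of these cathepsin genes thus differed. Ctsl, Csf1r and Cx3cr1 also overlap exons of other annotated genes on the other strand, whose reads cannot be told apart without strand. A further overlap of Ctsl, with exons of Gm49230, is on its own strand.

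The sodium-phosphate cotransporter gene Slc34a2 had 2889 ± 584.7 CPM caudally and 1854 ± 402.6 CPM rostrally (log2 difference -0.63, edgeR adjusted p = 0.0135), with overlapping ranges. The call held without each single sample and was lost with the counts as deposited (adjusted p = 0.0939), with no cell filter (0.254), with 2 groups of 8 (0.075) and with cortex or spinal cord left out (0.520 and 0.598). Spinal cord was its highest region at 3363 ± 185.1 CPM and cortex its lowest at 1620 ± 187.0 CPM, and cortex minus spinal cord was the 1 pair that passed (edgeR adjusted p = 0.00542). Slc34a2 reads were also found in 24 of the 28 wells of the series labelled blank, and the part of such reads was not tested. The membrane protein gene Tmem176a was at 539.2 ± 73.6 and 324.3 ± 80.8 CPM (log2 difference -0.74, edgeR adjusted p = 0.0235, held in 6 of 16 fits). Tmem176b, which overlaps it on the other strand, was at 1565 ± 236.0 CPM caudally and 1187 ± 238.6 CPM rostrally and did not pass (edgeR adjusted p = 0.275). Tet3, which encodes a dioxygenase that oxidises 5-methylcytosine, was at 144.7 ± 43.2 and 57.0 ± 18.3 CPM (log2 difference -1.35, edgeR adjusted p = 0.0214, held in 9 of 16 fits). Without plate columns 1 and 2 the adjusted p was 0.0597 for Tmem176a and 0.0554 for Tet3, and with limma on cell means it was 0.0688 for Tet3. Tmem176a was called with hippocampus left out and not with any of the other 3 regions left out.

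AU020206, annotated as a long intergenic noncoding RNA at chr7:75769038-75782099, was at 181.3 to 439.0 CPM caudally, median 261.6, and at 38.96 to 211.5 CPM rostrally, median 63.7. Cortex stood apart within the rostral side at 51.4 ± 9.37 CPM against 155.3 ± 63.1 CPM in hippocampus, and both pairs with cortex passed while both pairs with hippocampus did not. The difference between hippocampus and cortex itself did not pass edgeR's test (log2 difference 1.596, adjusted p = 1.0). The AU020206 call was lost without plate columns 1 and 2 (adjusted p = 0.0502), with 2 groups of 8 (0.169) and with cortex, cerebellum or spinal cord left out (0.640, 0.058 and 0.118). Tnfsf8, the CD30 ligand gene, had no read in the 4 cortex samples and in 3 of 4 hippocampus samples, while cerebellum had 38.6 ± 11.4 CPM and spinal cord 22.9 ± 16.3 CPM. Spinal cord replicate 4 also had no Tnfsf8 read, and the edgeR adjusted p was 0.0466, held in 2 of 16 fits. The call was lost with the replicate block (adjusted p = 0.0676), with the counts as deposited (0.156) and with 2 groups of 8 (0.0536). At 71388 reads per cell, 2 of 317 rostral and 27 of 302 caudal cells had a Tnfsf8 read.

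Rn18s-rs5, a row for a sequence related to 18S ribosomal RNA, had the smallest adjusted p among the genes tested. It lay between 12300 and 15530 CPM caudally, median 13990, and between 7239 and 10600 CPM rostrally, median 9466 (log2 difference -0.63 ± 0.06 SE, edgeR adjusted p = 4.76e-05). Removing this row and the mitochondrial genes before scaling left the other 18 genes called. Hippocampus (7917 ± 1007 CPM) and corpus callosum (7918 ± 276.6 CPM), which shared plate P217, had close means, against 10170 ± 491.9 CPM in cortex on plate P216. The corpus callosum value came from a separate scaling that included its samples, so these means are not on exactly 1 scale. Plate and region cannot be told apart in these values. Rn18s-rs5 reads were also found in 24 of the 28 blank wells of the series, and the part of such reads was not tested.

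**Figure D2:**
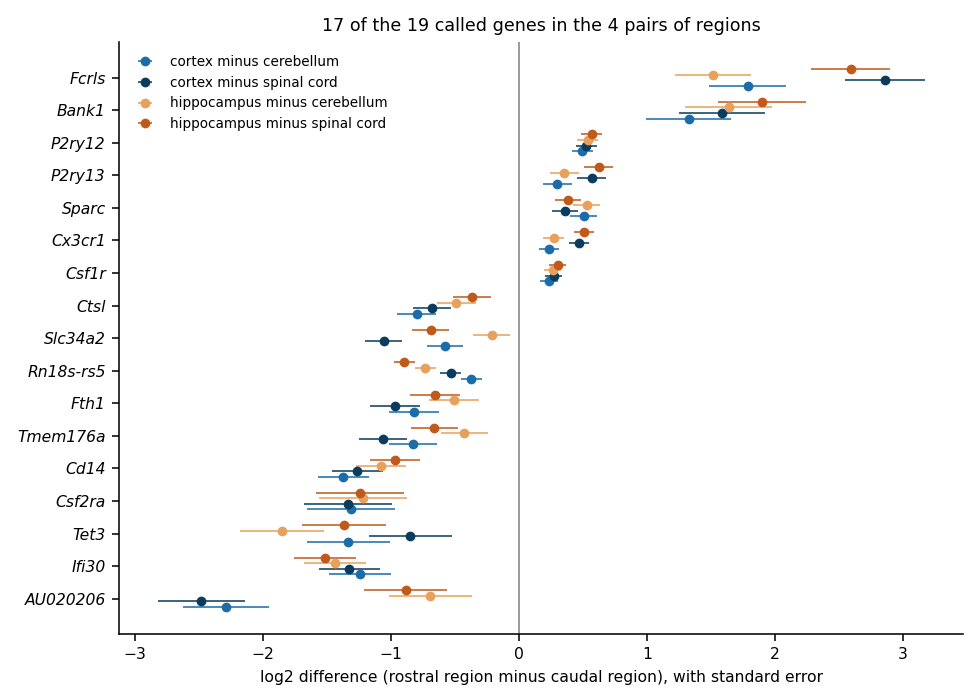
Log2 difference with its standard error (x axis) of 17 called genes (y axis) in each pair of a rostral with a caudal region; Slc39a12 and Tnfsf8 are left out because regions at 0 make their fitted differences unreliable. All 4 points of a gene lie on the same side of 0, and those of P2ry12 lie close together, between 0.50 and 0.57. The genes were called on the average of these same pairs.

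Of the remaining genes named by the rule, 9 separated the sides without passing edgeR's test. Rostrally these were Sall1, the transcription factor gene of microglial identity (492.4 to 635.8 CPM against 256.6 to 487.1 CPM, edgeR adjusted p = 0.265), the ubiquitin ligase gene Cbll1 (adjusted p = 0.162), the myosin gene Myo18b (adjusted p = 0.226) and Tmem44 (adjusted p = 0.228). Caudally these were Pnn, of RNA splicing (adjusted p = 0.0892), the ribosomal protein genes Rps9 (adjusted p = 0.275) and Rps3a1 (adjusted p = 0.541), Atl3, of endoplasmic reticulum shaping (adjusted p = 0.279), and Tmem205 (adjusted p = 0.3003). Sall1 had a log2 difference of 0.47, with cortex at 571.5 ± 72.0, hippocampus at 591.3 ± 35.7, cerebellum at 419.8 ± 42.7 and spinal cord at 419.1 ± 109.7 CPM.

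Gene groups were read against the share of all genes. Of the 20 homeostatic genes tested, 6 were called in the rostral direction and 0 in the caudal one, against 0.0601% and 0.0826% of all genes, and 18 had a positive log2 difference against 51.4% of all genes. The median over the list was 0.41. Ctss, the gene of the lysosomal protease cathepsin S, had a negative sign (-0.21, edgeR adjusted p = 0.269). The median stayed between 0.34 and 0.62 under the other scalings, count corrections and tools listed in the closing section, while scaling by library size alone gave 5 rostral calls and 1 caudal call. Of the 6 called genes, Fcrls and P2ry12 were called with the regions of a side summed, P2ry12 alone with spinal cord left out, and none with those sums and the replicate block.

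Of 18 disease-associated genes tested, 2 were called in the caudal direction, Ctsl and Fth1, against 0.0826% of all genes. Of the 18, 14 had a negative log2 difference against 48.6% of all genes, with a median of -0.55. With cell means in limma the median was -0.11, 12 of 18 were negative, and 1 gene was called in each direction, Apoe being the rostral one. Without the wells of plate columns 1 and 2 none was called by edgeR. Clec7a, a pattern recognition receptor gene, had no read in any rostral sample and 0 to 64.4 CPM in caudal samples (edgeR adjusted p = 0.190). Of its 8 caudal samples 2 held 2 or 3 counts and another 2 held none. The summed level of this list overlapped between the sides, 13610 to 20080 CPM rostrally and 12290 to 18380 CPM caudally.

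**Figure D3:**
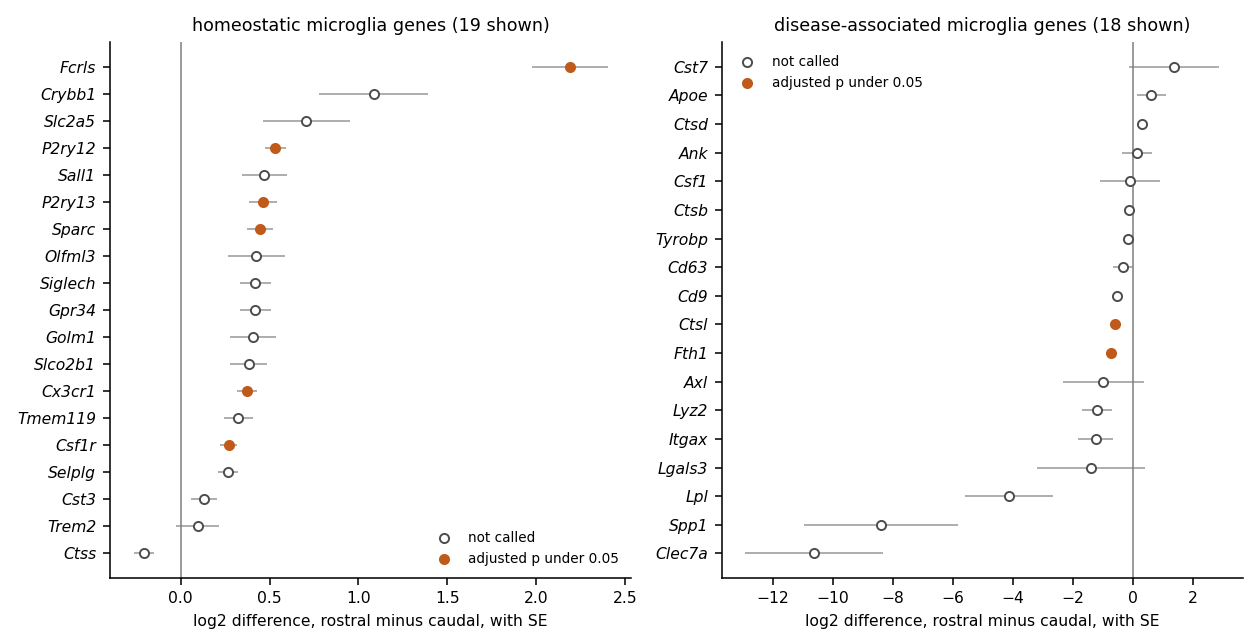
Log2 difference, rostral minus caudal, with its standard error (x axes) for 19 of the 20 tested genes of the homeostatic list (left) and the 18 tested genes of the disease-associated list (right); filled points passed edgeR's test. On the left 18 of the 19 points lie above 0, and on the right 14 of 18 lie below 0, the lowest being Clec7a, which had no rostral read, so that its fitted value is no estimate of a fold.

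Among 18 tested purinergic and sensing receptors, P2ry12, P2ry13 and Cx3cr1 were called rostrally and Cd14 caudally, against 0.0601% and 0.0826% of all genes. The median log2 difference was 0.01, with 9 genes of each sign. With limma on cell means 14 of the 18 were positive. P2ry6, the UDP receptor gene, was at 443.2 and 443.8 CPM and P2rx4, an ATP-gated channel gene, at 151.5 and 189.6 CPM, values given after they were seen. The sensing receptors thus held genes of both directions and many near 0.

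None of the 81 ribosomal protein genes tested was called by edgeR, with 3 called by DESeq2, yet 68 of them had a negative log2 difference (48.6% of all genes) and their median was -0.35. Their summed level was 2764 to 3708 CPM in rostral and 3762 to 4043 CPM in caudal samples, with no overlap. The number with a negative sign was 61 to 72 of those tested under the other scalings, count corrections and tools. The spike-in share given above and the plate also differed between the sides. Whether this list follows either of them was not tested.

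Of 20 cholesterol synthesis genes, 17 had a negative sign, against 48.6% of all genes, with a median of -0.59. Of them 0 were called by edgeR and 1 by DESeq2. All 17 tested genes of the G2/M phase had a positive sign, against 51.4% of all genes, with a median of 3.63. EdgeR called 0 of these genes and DESeq2 2. The summed level of the G2/M genes, 14.01 to 502.4 CPM rostrally and 6.09 to 58.4 CPM caudally, overlapped. With each cell weighing the same, in limma on cell means, the G2/M median was 0.09 and the cholesterol median -0.11. Cells with reads of 5 or more of 20 G2/M genes were rare, 5 of 317 rostral and 0 of 302 caudal cells (exact permutation over samples, adjusted p = 0.138, and 0.0484 without cortex replicate 4). Complement genes were level, with C1qa at 3923 and 4008 CPM and C1qb at 3942 and 3895 CPM (edgeR adjusted p = 0.956 and 0.990; both named after their values were seen). Of 88 nuclear genes of oxidative phosphorylation 0 were called, with a median of -0.02.

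Shares of cells were then compared at 71388 reads per cell, with 317 rostral and 302 caudal cells deep enough and 23 and 46 shallower ones left out. These shares use the same cells as the levels and do not give independent support. Over 34 shares the smallest p that the exact permutation test allows is 0.000155, which is an adjusted p of 0.000881. A share of 93.1% ± 6.48 of rostral and 56.0% ± 13.4 of caudal cells had Fcrls reads (SD, n = 8 each; exact permutation, adjusted p = 0.000881). It was 98.8% ± 1.45 in cortex, 87.4% ± 3.09 in hippocampus, 67.5% ± 6.25 in cerebellum and 44.6% ± 5.63 in spinal cord. Among cells with a read, the median number of Fcrls reads ran from 125 to 377 in rostral and from 53 to 109 in caudal samples. Both the share of cells and the reads per such cell were lower caudally.

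Bank1 reads were found in 44.1% ± 12.7 of rostral and 16.96% ± 4.59 of caudal cells (exact permutation, adjusted p = 0.000881). In cells with a read the sample median was 26 to 62.5 Bank1 reads rostrally and 7 to 75 caudally, so the caudal range enclosed the rostral one. The 3 cells with most reads held a median of 39.2% of a rostral and 89.0% of a caudal sample's Bank1 reads. Cd14 had reads in 69.7% ± 6.61 of rostral and 89.3% ± 5.195 of caudal cells (exact permutation, adjusted p = 0.000881), and Ifi30 in 56.9% ± 12.1 and 77.6% ± 5.04 (exact permutation, adjusted p = 0.00235). P2ry12, Cx3cr1 and Csf1r had reads in all 317 rostral cells and in 300, 302 and 302 of 302 caudal cells, so their differences were in reads per cell.

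Apoe, the lipid carrier apolipoprotein E gene, passed the test in the share of cells and not in the summed level. Reads were found in 61.1% ± 6.92 of rostral and 29.7% ± 9.92 of caudal cells (exact permutation, adjusted p = 0.000881), while the summed level of 816.4 ± 362.5 and 513.9 ± 475.5 CPM did not pass (log2 difference 0.62, edgeR adjusted p = 0.844). That difference was 0.44 to 1.34 with 1 sample left out, the highest without spinal cord replicate 3 (edgeR adjusted p = 0.349). With limma on cell means, where each cell weighs the same, Apoe passed (log2 difference 3.01, adjusted p = 1.182e-08), as it did in edgeR with no filter on low counts (log2 difference 0.61, adjusted p = 0.0255). Apoe reads were concentrated in few cells: the 3 cells with most reads held a median of 40.4% of a rostral and 74.6% of a caudal sample's Apoe reads. The median in cells with a read was 45 on both sides. The 12 blank wells of the 3 plates held 0 Apoe reads, 2 Fcrls reads, 4 P2ry12 reads and no read of Cd14, Ifi30 or Bank1. Not all called genes were this low in blank wells. Of the 28 blank wells of the whole series, 24 held Slc34a2 reads, 24 Rn18s-rs5 reads, 12 Fcrls reads and 10 Apoe reads.

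**Figure D4:**
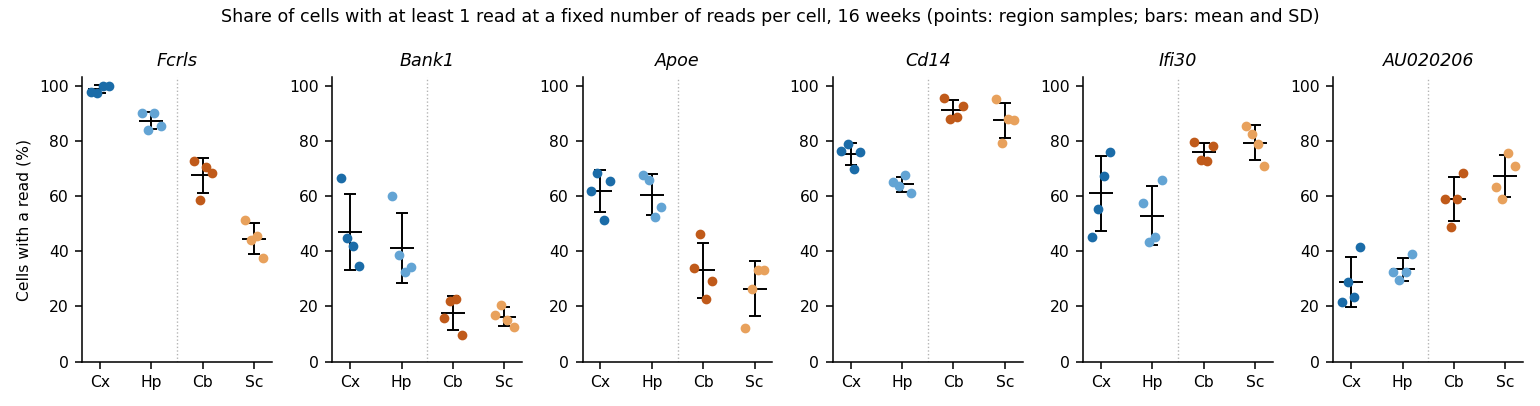
Share of cells with at least 1 read of 6 genes (y axes, percent, from 0) in the 16 region samples at a fixed number of reads per cell, by region; bars are the mean and SD over 4 samples. Fcrls, Bank1 and Apoe lie higher in cortex and hippocampus, and Cd14, Ifi30 and AU020206 higher in cerebellum and spinal cord.

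No difference passed the test for the shares of cells with MHC class II, Ccl3 or Ccl4, type I interferon, G2/M or immediate early genes. Cells with any of 4 MHC class II genes made up 19.6% ± 11.9 of rostral and 27.1% ± 19.01 of caudal cells (exact permutation, adjusted p = 0.483), and cells with 3 or more interferon genes 27.4% ± 12.8 and 25.6% ± 6.76 (exact permutation, adjusted p = 0.846). The MHC class II difference of -7.57 points was -2.57 without thinning and ran from -11.04 without hippocampus replicate 4 to -1.92 without spinal cord replicate 4. The mean levels of these 4 genes had the opposite direction, higher rostrally, and none was called. Cd74 was at 187.0 CPM rostrally and 29.25 CPM caudally, and H2-Aa at 65.5 and 0.0 CPM (edgeR adjusted p = 0.4605 and 0.191). Cells with Ccl3 or Ccl4 reads, chemokine genes known to be induced by handling of tissue, were 3.33% ± 2.85 and 7.77% ± 6.76 (exact permutation, adjusted p = 0.188). Cells with 3 or more immediate early genes were 84.6% ± 7.49 and 81.0% ± 8.10 (exact permutation, adjusted p = 0.483), and without thinning this share passed, at 89.5% ± 4.596 against 78.9% ± 3.78 (exact permutation, adjusted p = 0.00235).

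The 19 genes were followed in the other ages, which lay mostly on other plates. At 3 weeks (6 rostral against 6 caudal samples of the same 4 regions) 190 of 14407 genes were called, 1.32% (0.729% higher rostrally and 0.59% higher caudally). Of the 19 genes 18 could be tested there, 16 had the same sign and 5 were called with that sign: Fcrls, Sparc, Csf1r, Ctsl and Rn18s-rs5. In embryos (forebrain and midbrain against cerebellum and spinal cord, 8 samples each) 1 of 14884 genes was called, 0.00672%, with 1167 at an unadjusted p under 0.05 and 124 by DESeq2, and it was none of the 19. Of 18 tested in embryos 12 had the 16-week sign.

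Fcrls at 3 weeks was at 5345 ± 1082 CPM rostrally and 2689 ± 796.0 CPM caudally (log2 difference 0.99, edgeR adjusted p = 0.0191), and in embryos at 6262 ± 893.1 and 5919 ± 942.9 CPM (log2 difference 0.09, edgeR adjusted p = 0.814). The difference between the 16-week and the 3-week contrast of Fcrls was 1.20 on the log2 scale and did not pass (edgeR adjusted p = 0.0907).

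P2ry12, P2ry13 and Ifi30 were the genes among the 19 whose contrast differed between 16 and 3 weeks by edgeR's test of the difference itself, which called 46 of 17851 genes, 0.258% (0.146% with a more rostral and 0.112% with a more caudal contrast at 16 weeks). P2ry12 was at 9689 ± 750.0 CPM rostrally and 9620 ± 965.9 CPM caudally at 3 weeks (log2 difference 0.01, edgeR adjusted p = 0.967). The difference of its contrasts was 0.53 (edgeR adjusted p = 0.00255), against a median of 0.10 over all genes. P2ry13 was at 3289 ± 257.1 and 3678 ± 285.1 CPM at 3 weeks, and its contrasts differed by 0.63 (edgeR adjusted p = 0.00612). Ifi30 was at 284.9 ± 25.1 and 316.0 ± 21.2 CPM at 3 weeks, and its contrasts differed by -1.22 (edgeR adjusted p = 0.00558). Cx3cr1 and Csf2ra had log2 differences of 0.02 and 0.18 at 3 weeks, and the tests of their differences between the ages did not pass (edgeR adjusted p = 0.0939 and 0.0578).

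**Figure D5:**
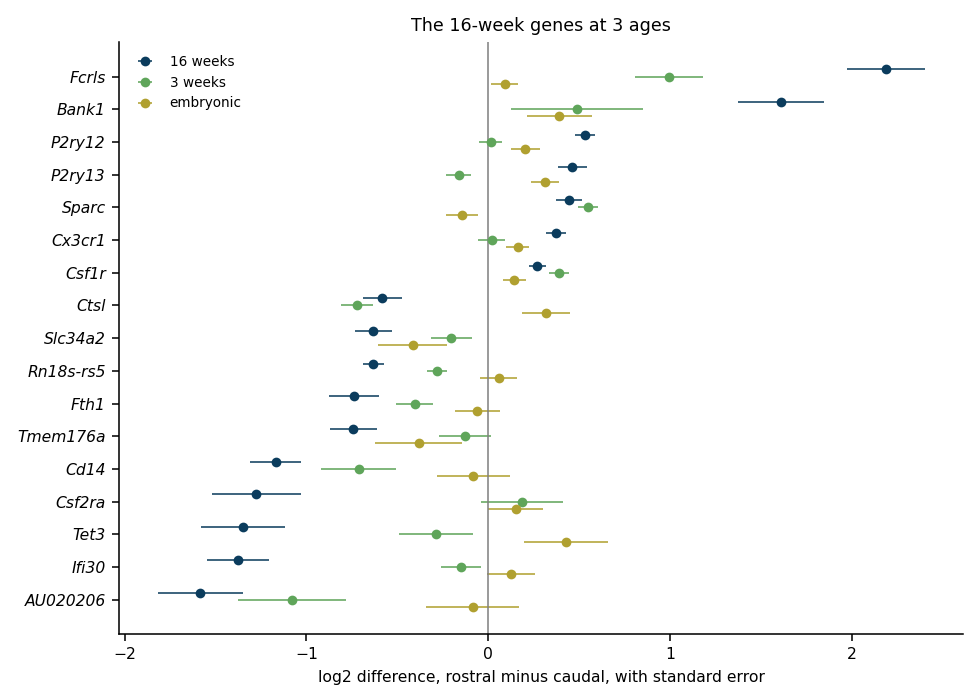
Log2 difference, rostral minus caudal, with its standard error (x axis) of 17 of the 16-week genes (y axis) at 16 weeks, 3 weeks and in embryos. P2ry12, P2ry13 and Ifi30 lie at 0.53, 0.46 and -1.38 at 16 weeks and at 0.01, -0.16 and -0.15 at 3 weeks.

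Corpus callosum of 16 weeks, a white matter tract between the hemispheres, was on the hippocampus plate and in neither side. Over its 4 samples it lay nearer to the rostral mean for 12 of the 19 genes, 6 of the 8 rostral and 6 of the 11 caudal genes. Fcrls there was at 1805 ± 865.7 CPM, P2ry12 at 10520 ± 864.5 CPM and Cd14 at 309.4 ± 61.9 CPM. Slc34a2 was at 3109 ± 235.9 CPM and Tnfsf8 at 22.9 ± 21.1 CPM, within the caudal ranges, which were scaled without the corpus callosum samples.

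Within the sides edgeR called 0 genes between hippocampus and cortex and 0 between spinal cord and cerebellum, with 651 and 705 genes at an unadjusted p under 0.05 and 60 and 63 called by DESeq2. Across the sides the 4 pairs gave 4 genes (cortex and cerebellum, 0.03%), 11 (cortex and spinal cord, 0.0826%), 2 (hippocampus and cerebellum, 0.015%) and 5 (hippocampus and spinal cord, 0.0375%). These pairs share region samples, and the difference between their counts was not tested.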

How the data were processed

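Read counts per gene and well were deposited by the authors in 1 table, which per the submitters' processing notes came from STAR 2.5.2b, featureCounts 1.6.2 and GRCm38. The Length column (other, summed exon bases), per the file headers, was not used in any test. From wells of plate columns 1 and 2 the counts of same-row wells whose names start alike were subtracted (0 of 2095843 values fell below 0). Wells with at least 500 genes and at most 20% mitochondrial counts were kept and summed per region sample, spike-ins apart. edgeR 4.0.16 (R 4.3.3, limma 3.58.1, DESeq2 1.42.0 as alternatives) was fitted with the 4 regions as groups, TMM scaling, filterByExpr and robust quasi-likelihood tests, and Benjamini-Hochberg adjustment over all genes tested (threshold 0.05). The samples of 3 weeks and of embryos were fitted alike. Replicate numbers were not used as pairs. Alternatives were the counts as deposited, other scalings, filters, groupings and tools, a replicate block, and each sample or region left out. Shares and per-cell medians were compared by exact two-sided permutation over region samples (numpy 2.4.6, scipy 1.17.1), adjusted over 34 shares and 6 measures. The scripts were tested on simulated data.

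Genes were named by rule: per direction, the 14 largest differences among called genes with 1 sign in the 4 pairs, no overlap of the 8 and 8 values, at least 10 CPM and a unique proper symbol, filled to 10 by the smallest p among genes that meet all but the threshold, plus up to 4 members with the smallest p and any called member of each list, and a few genes by name (among them Fcrls, Slc34a2 and Apoe). Slc39a12, Tnfsf8, Tmem176a, Tet3 and AU020206 fall outside it and were named after their values were seen. The region comparison, the lists and the rule were chosen with earlier results of these data known. No column lacked a sample. The values of 1 homeostatic gene are not reported here.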

Additional observations from a re-analysis of the deposited data

Results flagged for a closer look

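Of 161 groups of 4 region samples examined, 12 had 1 sample far from the other 3, where chance alone flags about 1 in 20. Bank1 in cortex was at 317.5 CPM in replicate 1 against 188.0 to 199.2 CPM in the others, Myo18b in spinal cord at 8.48 CPM in replicate 4 against 1.18 to 2.13 CPM, and Fth1 in spinal cord at 1395 CPM in replicate 3 against 823.8 to 889.8 CPM. Tmem44 was at 24.4 CPM in cortex replicate 4 against 90.2 to 101.3 CPM and at 237.2 CPM in hippocampus replicate 3 against 32.9 to 38.0 CPM. Sall1 was at 256.6 CPM in spinal cord replicate 4 against 449.0 to 487.1 CPM, Atl3 at 27.9 CPM in cerebellum replicate 1 against 19.1 to 20.2 CPM, and Slc34a2 at 1343 CPM in cortex replicate 3 against 1690 to 1756 CPM. Reads were found in 1 of 4 samples for Tmem205 in hippocampus (1.95 CPM, replicate 4), Slc39a12 in spinal cord (0.762 CPM, replicate 2) and Tnfsf8 in hippocampus (1.78 CPM, replicate 1). The share of cells with Ccl3 or Ccl4 reads was 0.0% in cortex replicate 4 against 2.33% to 2.63% in the other 3.

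The rostral-caudal contrast of 3 named genes differed between 16 and 3 weeks by edgeR's test of the difference: P2ry12 by 0.53 (adjusted p = 0.00255), P2ry13 by 0.63 (adjusted p = 0.00612) and Ifi30 by -1.22 (adjusted p = 0.00558) on the log2 scale. The 2 ages lay mostly on different plates, and age and plate cannot be told apart in these differences.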

How the results depend on the processing

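All 19 called genes kept their direction in every alternative fit run, 35 for each and 34 for Rn18s-rs5. The count of 19 became 227 with DESeq2, 225 with limma on cell means, 129 with no filter on low counts, 6 with the regions of a side summed (4 against 4) and 0 with those sums and the replicate block in edgeR (881 at an unadjusted p under 0.05). It was 4, 9, 9 and 3 with cortex, hippocampus, cerebellum or spinal cord left out, and 9 to 24 with 1 region sample left out (lowest without cerebellum replicate 3, then 10 without cerebellum replicate 4 and without spinal cord replicate 3, and 12 without hippocampus replicate 3). The replicate block alone gave 26 calls, 16 of the 19 among them, without Csf2ra, Slc39a12 and Tnfsf8; same-numbered samples correlated at -0.005 to 0.123 and every sample best with its own number, a hint from the data and not the design. The cross-region counts of 4, 11, 2 and 5 became 86, 136, 126 and 126 with DESeq2. Without plate columns 1 and 2 cortex minus cerebellum gave 0 and cortex minus spinal cord 7; with the replicate block cortex minus spinal cord gave 17 and hippocampus minus cerebellum 6, and as deposited the latter gave 1. The within-side counts of 0 became 60 and 63 with DESeq2, and hippocampus minus cortex 1 as deposited. At 3 weeks the count of 190 became 822 with DESeq2, 299 as deposited and 113 to 154 with 1 sample left out (113 without spinal cord replicate 1, 120 without spinal cord replicate 2 or hippocampus replicate 2, 121 without hippocampus replicate 1). In embryos 1 became 124 with DESeq2, 3 as deposited, 0 with the replicate block and 2 without plate columns 1 and 2; the age difference of 46 became 509 with DESeq2 and 105 as deposited. Without thinning the immediate early share differed by 10.6 points and passed; as deposited the genes per cell differed by 390.8 and no longer passed. With 1 sample left out, the interferon share difference ran from -0.654 to 3.76 points (-0.654 without cortex replicate 4 and -0.174 without hippocampus replicate 4), the MHC class II one from -11.04 to -1.92, the G2/M one from 1.07 to 1.77 (passing without cortex replicate 4, adjusted p = 0.0484) and the reads per cell difference from 30570 to 50030 (passing without cerebellum replicate 1, adjusted p = 0.0345). Of single shares, the sign turned for Sparc (-0.893 without plate columns 1 and 2, and from -0.3125 to 0.5682 with 1 sample left out), for Pnn (from -1.936 to 1.438 with 1 sample left out, 0.475 unthinned) and, unthinned, for Fth1 (2.09), Rps9 (0.882) and Rps3a1 (0.183). The causes were not tested. Thinning before summing and the removal of Rn18s-rs5 and mitochondrial genes were chosen after seeing the data.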
